A study of Mus musculus with 12 samples.

Results

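The effect of *Tfap2a* genotype on facial gene expression was measured as an average over the nasal and maxillary prominences of the mouse embryo. All 12 arrays of the series entered this contrast, which is the mean of the nasal difference and the maxillary difference between Neo/Null and Neo/Wt tissue. Of 45037 probe sets, 20153 had been called present in all 4 groups of arrays and were tested, and they covered 9999 genes with a symbol of their own. Each group held 3 arrays of E10.5 tissue (E, embryonic day), namely Neo/Null nasal, Neo/Null maxillary, Neo/Wt nasal and Neo/Wt maxillary. Neo/Null embryos carry one Neo allele and one null allele of *Tfap2a*. Neo/Wt embryos, labelled as controls, carry one Neo allele and one wild-type allele. The Neo allele, in which a selection cassette lies between exons of the DNA-binding domain, is thus present in both groups. All embryos came from an outbred Black Swiss stock, from Neo homozygous mothers and *Tfap2a*+/− fathers. Tissue of several embryos was pooled for each array, and the sources do not say if exencephalic embryos were included.

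*Tfap2a* encodes AP-2α, a transcription factor that binds DNA as a dimer and is made in the surface ectoderm and the neural crest of the embryonic face. The prominences are swellings of crest-derived mesenchyme under ectoderm, and they must grow towards each other and fuse to close the upper lip. Signals of the Fgf, Wnt, Bmp, Hedgehog and retinoic acid pathways pass between these layers while the prominences grow.

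The values are log2 signals, and differences between them are log2 fold changes. The arrays had medians of 7.66 to 7.79 over the tested probe sets. Nasal and maxillary arrays of the same genotype and number shared their deviations from the group means, with a correlation across probe sets of 0.205 to 0.296 in all 6 pools, and were fitted as one pool of embryos. Across differently numbered arrays of a genotype the same correlation was -0.248 to 0.0683. Deviations from a group mean cancel within the group, which pushes these values down, so they are not a separate check. The array of Neo/Wt maxillary pool 3 stood farthest from its group, with a root mean square deviation of 0.142 against 0.0824 to 0.12 on the other 11 arrays. The tissue labels fitted their markers: *Dlx1*, *Dlx2*, *Lhx6*, *Lhx8* and *Barx1*, homeobox genes of the maxillary mesenchyme, were higher in all 6 maxillary arrays than in any nasal array, and *Alx1*, *Pax7* and *Six3* were higher in all 6 nasal arrays. Markers of blood were bright, with embryonic globin *Hbb-bh1* at 13.25 to 13.50 in Neo/Null arrays and at 13.31 to 13.60 in Neo/Wt arrays, and endothelial, macrophage and neuronal markers were also called present.

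The signal of *Tfap2a* itself did not separate the genotypes. Its brightest probe set read 9.14, 9.19 and 9.07 in Neo/Null nasal arrays and 9.22, 9.13 and 9.11 in Neo/Null maxillary arrays, against 9.06, 9.12 and 9.19 in Neo/Wt nasal arrays and 9.11, 9.10 and 9.08 in Neo/Wt maxillary arrays. The averaged difference was 0.03 (SE 0.04), and those of its dimmer probe sets were 0.10 and -0.10. Where these probe sets lie relative to the cassette and to the part removed in the null allele was not established, so they do not check the genotype labels. Of the related genes tested, *Tfap2b* had an averaged difference of 0.17 (SE 0.07) and *Tfap2c* of 0.14, and *Kctd1*, whose product represses AP-2α, had one of -0.15 (SE 0.05).

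Averaged over both prominences, 1 probe set of 20153 passed limma's adjusted test. It belongs to *Ssr1*, which encodes the alpha subunit of the translocon-associated protein complex in the endoplasmic reticulum, and it was higher in Neo/Null tissue. The share called in this direction was 0.00496%, and 0 probe sets were called lower. The standard test with no adjustment (limma, p under 0.05) gave 664 higher probe sets, 3.29% of those tested, and 208 lower ones, 1.03%, a total of 872 where 1007.65 would be called if no gene differed. Of these 872 probe sets, 844 had the same sign in both prominences. Choosing probe sets by a large average favours equal signs, so this count is not separate evidence that the prominences agree. With the further limit of a log2 difference over 0.32 in size, called the fold limit from here on, 68 probe sets were higher (0.337%) and 13 were lower (0.0645%). Only 5 exceeded 1.5-fold, all of them higher, namely probe sets of *Zic5* (1.56), *Tubb5*, *Shox2* and *Shisa3* (1.54 each) and *Cntn1* (1.52), of which *Tubb5*, *Shisa3* and *Cntn1* were named with their values known. The probe set of *Tubb5* was not the brightest of its gene, and the brightest was not among the probe sets past both limits. The surplus of higher calls moved with the scaling of the arrays: 76.1% of the calls at an unadjusted p under 0.05 were higher with the values as deposited, 63.1% after quantile normalization and 54.9% when each array was centred on its median. The median difference of all tested probe sets was 0.0116 with the deposited values and -0.00635 with centring, so differences near that size carry no direction. The limma test of the difference between the prominences called 0 probe sets after adjustment (smallest adjusted p = 0.301) and 1363 at an unadjusted p under 0.05, so values given below for one prominence and not the other are descriptions. In the nasal prominences alone the smallest limma adjusted p was 0.969, and in the maxillary prominences alone it was 0.0723.

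Of the 81 probe sets past the fold limit, 79 had the same sign in both prominences, which the choice by the average again favours. In 26 of them the difference had an unadjusted limma p under 0.05 in each prominence taken alone, in 34 only in maxillary tissue, in 16 only in nasal tissue and in 5 in neither. Counting a gene only by its brightest probe set, they held 40 higher genes and 3 lower genes, *Mid1*, *S100a6* and *Emx2*. The higher genes had a median log2 signal of 6.19 against 8.19 for all genes tested, and 28 of 40 had the larger difference in maxillary tissue, against 53.9% of all genes. Of the 40 higher genes, 3 (7.5%) were over 2-fold higher in Neo/Wt maxillary than in Neo/Wt nasal tissue, against 0.45% of all genes, and 2 (5.0%) were over 2-fold higher in Neo/Wt nasal tissue, against 0.71% of all genes. A stricter description by single arrays found 79 probe sets (0.392%) in which every Neo/Null array exceeded every Neo/Wt array of its prominence, and 35 (0.174%) in which every Neo/Null array lay below. Absence of overlap in a single prominence sets only 3 arrays against 3. Its share over all tested probe sets is not given here, so where it is stated below it is a description only.

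**Figure D1:**
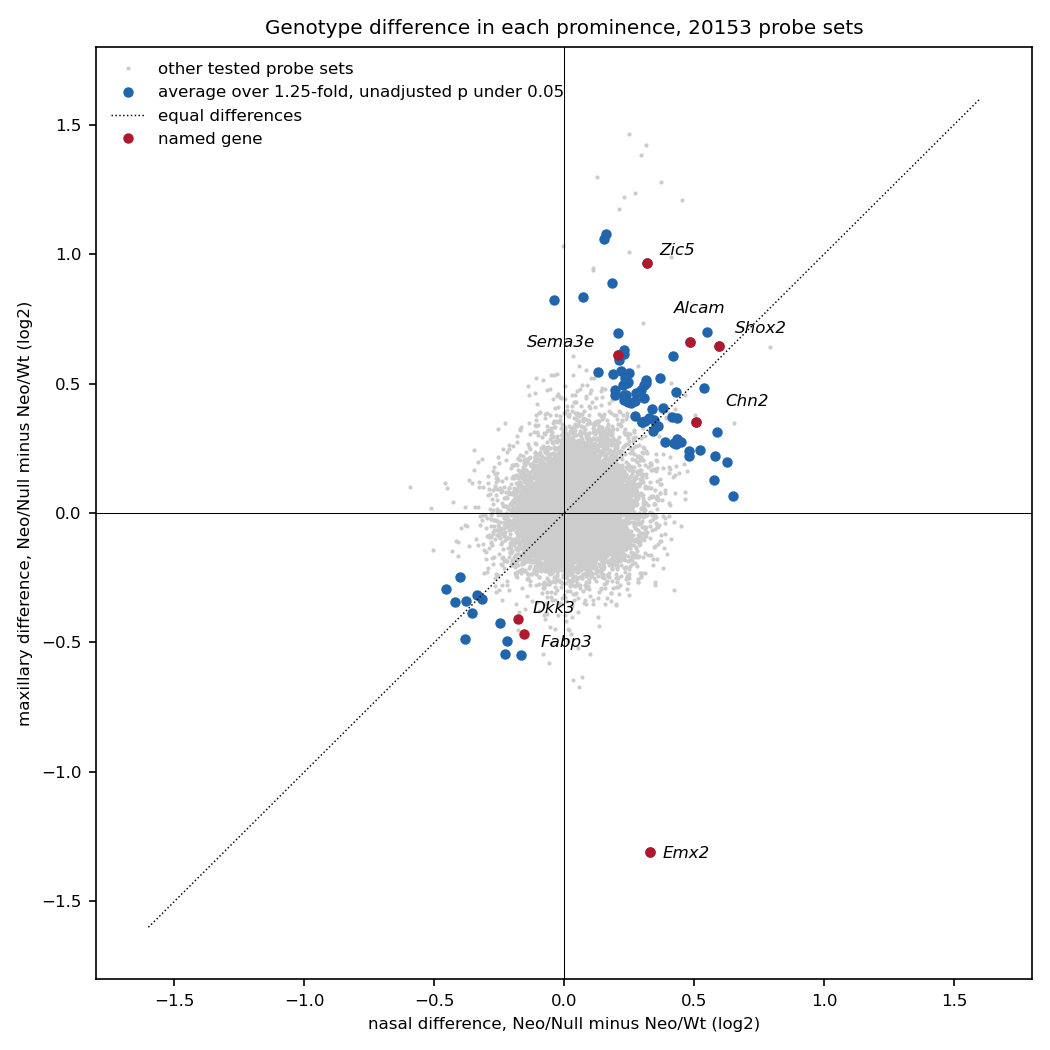
Each point is a probe set, placed by its Neo/Null minus Neo/Wt difference (log2) in nasal tissue (horizontal axis) and in maxillary tissue (vertical axis). The 81 probe sets past the fold limit at an unadjusted p under 0.05 are blue, or red where they are labelled by name. *Dkk3* and *Fabp3* are also labelled in red but fall short of the fold limit. Of the 81, 79 lie in the quadrants where both differences have the same sign, which choice by the average favours. *Emx2* lies at 0.33 in nasal and -1.31 in maxillary tissue.

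*Ssr1* had log2 signals of 11.35, 11.35 and 11.40 in Neo/Null nasal tissue, against 11.03, 11.02 and 11.11 in Neo/Wt nasal tissue. In maxillary tissue it had 11.37, 11.32 and 11.36 in Neo/Null and 11.01, 10.93 and 11.04 in Neo/Wt. The genotypes did not overlap in either prominence, and the averaged difference was 0.33 (SE 0.04), a fold of 1.26 with a 95% interval of 1.19 to 1.34 (limma adjusted p = 0.0388). The other probe sets of the gene disagreed with each other. One differed by 0.41 with no overlap, one by 0.02, and the dimmest by -0.21 (SE 0.09). The mean over all tested probe sets of the gene differed by 0.139 (limma adjusted p = 0.999). The adjusted p of the called *Ssr1* probe set was 0.0652 to 0.843 with any 1 pool or array left out, and 0.182 with median centring. In a fit on the mean of each pool its limma adjusted p was 0.672.

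*Ssr1* lies 12 protein-coding genes from *Tfap2a* on chromosome 13. The null allele was always inherited from the father, so DNA linked to it moved with the genotype, and an effect of linked DNA cannot be told apart from an effect of the lost *Tfap2a* function for genes in this region. Of the 29 genes tested within 5 Mb of *Tfap2a*, itself included, 4 were higher and 0 lower at an unadjusted limma p under 0.05, or 13.8%, against 4.99% of the 341 genes tested on the rest of the chromosome and 4.18% of all genes. Besides *Ssr1* they were *Dsp*, which encodes the desmosomal protein desmoplakin, with a difference of 0.24 (SE 0.11) at its brightest probe set and of -0.12 and 0.05 at the others, *Tmem170b* with 0.18 (SE 0.08) and *Rnf182*, which encodes a ubiquitin ligase, with 0.30 (SE 0.12). *Dsp* is also a gene of the surface ectoderm, described further on. A probe set of *Snrnp48*, which encodes a protein of the minor spliceosome and lies 8 genes away, was lower with no overlap. It read 8.15, 8.08 and 8.21 in Neo/Null nasal and 8.38, 8.29 and 8.42 in Neo/Null maxillary tissue, against 8.44, 8.37 and 8.57 in Neo/Wt nasal and 8.68, 8.66 and 8.75 in Neo/Wt maxillary tissue, a difference of -0.32 (SE 0.05, limma adjusted p = 0.141). The brightest probe set of *Snrnp48* differed by 0.02 and the other probe sets by 0.04 and 0.10, so the lower signal was seen by 1 of 4 probe sets. *Snrnp48* was chosen for mention with its values known.

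**Figure D2:**
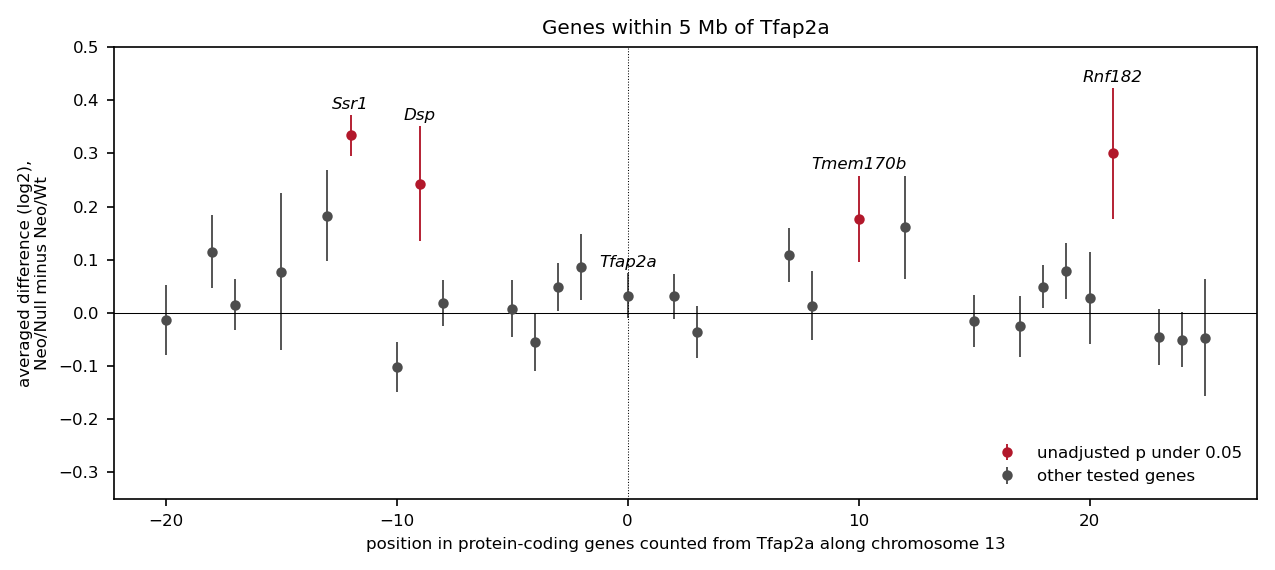
The averaged difference (log2, Neo/Null minus Neo/Wt, with its SE) of the 29 tested genes within 5 Mb of *Tfap2a* is plotted against their place in the order of protein-coding genes. *Ssr1*, *Dsp*, *Tmem170b* and *Rnf182* are marked for an unadjusted p under 0.05, while *Tfap2a*, at place 0, had a difference of 0.03.

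The 15 higher genes with the smallest p are given here by the known roles of their products. All 15 were higher in both prominences, and in 11 of them the genotypes overlapped in neither prominence. Among all tested probe sets 0.392% were higher without overlap in either. Both counts are favoured by the choice of the smallest p on the same arrays, so they are descriptions only. Apart from *Ssr1*, none passed the adjusted test, and their limma adjusted p-values began at 0.141.

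*Zic5*, a zinc finger factor gene of the dorsal neural tube and neural crest, had the largest fold. It read 4.65, 4.59 and 4.68 in Neo/Null nasal and 5.43, 4.99 and 4.89 in Neo/Null maxillary tissue, against 4.29, 4.44 and 4.25 in Neo/Wt nasal and 3.97, 4.25 and 4.21 in Neo/Wt maxillary tissue. No array of one genotype reached those of the other within a prominence, and the averaged difference was 0.64 (SE 0.10), a fold of 1.56 (95% interval 1.35 to 1.8, limma adjusted p = 0.141). With an offset of 32 added to the signals before the log, which damps dim probe sets, the difference of *Zic5* was 0.277. Its relative *Zic1* was not called present in all groups and was not among the probe sets tested. *Zeb2*, which encodes a zinc finger repressor needed by the neural crest, was higher by 0.29 (SE 0.06). It was larger in maxillary tissue, with 8.06 ± 0.07 in Neo/Null and 7.58 ± 0.07 in Neo/Wt (SD, n = 3 each) and no overlap, while in nasal tissue 6.77 ± 0.13 in Neo/Null overlapped with 6.67 ± 0.07 in Neo/Wt. All 4 probe sets of *Zeb2* had a positive average.

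*Tcf7l2* and *Bmp5* were higher by nearly equal amounts in each prominence. *Tcf7l2*, which encodes a nuclear partner of β-catenin in Wnt signalling, read 6.77, 6.60 and 6.34 in Neo/Null nasal and 6.23, 6.37 and 6.31 in Neo/Null maxillary tissue, against 6.25, 6.28 and 6.11 in Neo/Wt nasal and 5.85, 6.01 and 6.03 in Neo/Wt maxillary tissue. Its averaged difference was 0.35 (SE 0.08). *Bmp5*, a ligand of the Bmp family, read 7.51, 7.14 and 7.18 in Neo/Null nasal and 6.71, 6.72 and 6.65 in Neo/Null maxillary tissue, against 6.81, 6.83 and 6.89 in Neo/Wt nasal and 6.05, 6.36 and 6.56 in Neo/Wt maxillary tissue, with an averaged difference of 0.40 (SE 0.09). Neither gene overlapped between genotypes. *Tpbg*, which encodes a cell surface glycoprotein that restrains Wnt signalling, was higher by 0.23 (SE 0.05), with no overlap in maxillary tissue alone.

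*Alcam*, which encodes an immunoglobulin-family adhesion molecule of axons and epithelia, was higher by 0.57 (SE 0.11), a fold of 1.49 (95% interval 1.26 to 1.75). It read 5.55, 5.68 and 5.45 in Neo/Null nasal and 7.02, 7.28 and 7.02 in Neo/Null maxillary tissue, against 5.12, 5.27 and 4.83 in Neo/Wt nasal and 6.60, 6.63 and 6.10 in Neo/Wt maxillary tissue. The lowest Neo/Null array was above the highest Neo/Wt array in each prominence, and all 3 probe sets of the gene were higher. *Alcam* passed the adjusted test only when the replicate number was added as a block (limma adjusted p = 0.0224), a number that does not pair the genotypes. *Sema3e*, a secreted semaphorin that guides axons and vessels through plexin D1, read 5.67, 5.60 and 5.60 in Neo/Null nasal and 6.27, 6.21 and 6.56 in Neo/Null maxillary tissue, against 5.44, 5.53 and 5.28 in Neo/Wt nasal and 5.68, 5.85 and 5.69 in Neo/Wt maxillary tissue. Its averaged difference was 0.41 (SE 0.07), with 0.21 in nasal and 0.61 in maxillary tissue. *Chn2*, which encodes beta2-chimaerin, a Rac GTPase-activating protein, had differences of 0.51 in nasal and 0.35 in maxillary tissue and an average of 0.43 (SE 0.09). Its signals were 6.06, 5.99 and 5.96 in Neo/Null nasal and 6.37, 6.31 and 6.57 in Neo/Null maxillary tissue, against 5.22, 5.57 and 5.70 in Neo/Wt nasal and 6.18, 6.05 and 5.98 in Neo/Wt maxillary tissue. Neither *Sema3e* nor *Chn2* had overlapping genotypes, and limma's test of the difference between prominences gave adjusted p-values of 0.679 and 0.865 for them.

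Of the 25 tested genes of adhesion and axon guidance, 17 were higher and 8 lower, with a median difference of 0.07 against 0.0076 for all genes. Among all genes tested 55.7% were higher on average, and the counts of each list are to be read against that share. At an unadjusted limma p under 0.05, 7 were higher and 0 lower, where 3.2% of all genes were higher and 0.98% lower. Besides *Alcam* and *Sema3e* these were *Cdh2*, N-cadherin (0.24, SE 0.06), *Nrp1*, a semaphorin co-receptor (0.24, SE 0.08), *Efnb2*, an ephrin (0.21, SE 0.07), and the guidance cues *Slit2* (0.18) and *Ntn1* (0.19). *Nrp1* and *Efnb2* were higher in maxillary tissue, by 0.53 and 0.39, their nasal differences were -0.05 and 0.04, and the average of *Nrp1* was 0.146 without Neo/Null pool 2, whereas *Slit2* and *Ntn1* had the larger difference in nasal tissue. *Epha3*, *Efna5*, *Nrp2* and *Plxna2* had the most negative averages, between -0.09 and -0.11.

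The remaining higher genes with the smallest p were *Celf2*, an RNA-binding splicing regulator (0.38, SE 0.08), *Uchl1*, a neuronal ubiquitin hydrolase (0.29, SE 0.06), *Tubb2b*, a tubulin of migrating neurons (0.36, SE 0.08), *Tafa2*, a secreted protein of the nervous system (0.38, SE 0.08), *Pan3*, a subunit of an mRNA deadenylase (0.30, SE 0.06), and *S100a10*, a partner of annexin A2 (0.20, SE 0.04). *Uchl1* read 8.63, 8.71 and 8.64 in Neo/Null nasal and 8.29, 8.43 and 8.11 in Neo/Null maxillary tissue, against 8.47, 8.44 and 8.40 in Neo/Wt nasal and 7.98, 8.01 and 7.77 in Neo/Wt maxillary tissue. *Tubb2b* had 10.64, 10.58 and 10.69 in Neo/Null nasal and 10.16, 10.46 and 10.03 in Neo/Null maxillary tissue, against 10.52, 10.53 and 10.30 in Neo/Wt nasal and 9.72, 9.74 and 9.57 in Neo/Wt maxillary tissue. Of these 6 genes, *Celf2* overlapped in nasal tissue and *Pan3* in maxillary tissue, and the other 4 in neither. Dimmer probe sets of *Celf2* and *Pan3* had averages down to 0.10.

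**Figure D3:**
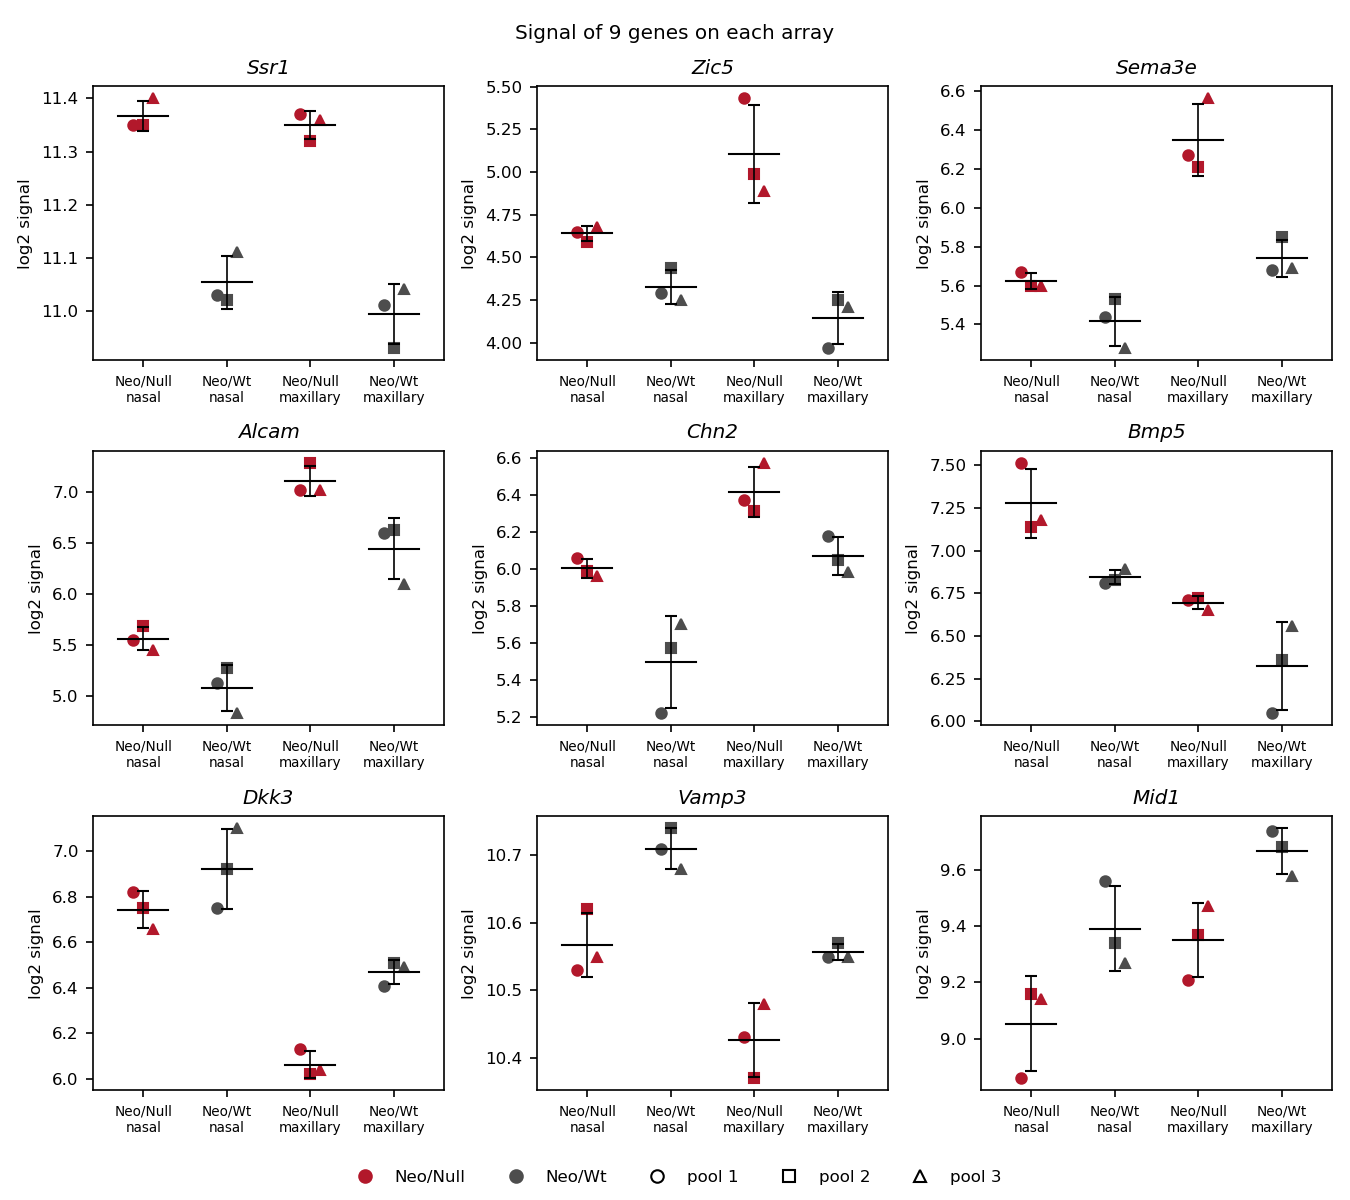
The log2 signal of 9 genes is plotted for each array, with a symbol for each pool, a line at the group mean and bars of 1 SD. For *Ssr1*, *Zic5*, *Sema3e*, *Alcam*, *Chn2* and *Bmp5* all Neo/Null arrays lie above the Neo/Wt arrays of the same prominence, for *Vamp3* and *Mid1* all lie below, and *Dkk3* overlaps in nasal tissue.

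Among the 15 lower genes with the smallest p, differences ran from -0.13 to -0.49. In 5 of the 15 the genotypes overlapped in neither prominence with the lower signal in Neo/Null, namely *Mid1*, *Plbd1*, *Rchy1*, *Vamp3* and *Fabp3*. The share over all tested probe sets was 0.174%. In 14 the sign was the same in both prominences, and the choice by p favours both counts. The smallest limma adjusted p was 0.762, for *Dkk3*. *Vamp3*, which encodes a vesicle fusion protein of recycling endosomes, read 10.53, 10.62 and 10.55 in Neo/Null nasal and 10.43, 10.37 and 10.48 in Neo/Null maxillary tissue, against 10.71, 10.74 and 10.68 in Neo/Wt nasal and 10.55, 10.57 and 10.55 in Neo/Wt maxillary tissue. Its difference was -0.14 (SE 0.04), and all 4 of its probe sets were lower with no overlap in either prominence, by up to -0.38. *Plbd1*, which encodes a phospholipase B-like enzyme, differed by -0.15 (SE 0.04), *Rchy1*, a ubiquitin ligase that acts on p53, by -0.17 (SE 0.05), and *Fabp3*, a fatty acid binding protein, by -0.31 (SE 0.09).

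*Mid1*, which encodes a ubiquitin ligase on the X chromosome that is mutated in a human syndrome with facial clefts, read 8.86, 9.16 and 9.14 in Neo/Null nasal and 9.21, 9.37 and 9.47 in Neo/Null maxillary tissue, against 9.56, 9.34 and 9.27 in Neo/Wt nasal and 9.74, 9.68 and 9.58 in Neo/Wt maxillary tissue. The genotypes did not overlap, and the difference was -0.33 (SE 0.07). Beside it, the pools differed in transcripts of the sex chromosomes: *Xist*, made from the inactive X chromosome, differed by -0.24 (SE 0.28), and the Y-linked *Kdm5d*, *Eif2s3y* and *Uty* by 0.44 (SE 0.30), 0.34 (SE 0.21) and 0.25 (SE 0.18), all with overlapping genotypes. *Kdm5d* read 7.23, 8.10 and 7.11 in Neo/Null nasal and 7.04, 8.08 and 7.66 in Neo/Null maxillary tissue, against 7.50, 7.44 and 5.98 in Neo/Wt nasal and 7.33, 7.56 and 6.75 in Neo/Wt maxillary tissue. The part of sex in the *Mid1* result was not tested.

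*Dkk3*, a secreted protein of the Dickkopf family, read 6.82, 6.75 and 6.66 in Neo/Null nasal and 6.13, 6.02 and 6.04 in Neo/Null maxillary tissue, against 6.75, 6.92 and 7.10 in Neo/Wt nasal and 6.41, 6.51 and 6.49 in Neo/Wt maxillary tissue. Its difference was -0.29 (SE 0.06), with no overlap in maxillary tissue only. *Dpep1*, a membrane dipeptidase, was lower, at -0.32 (SE 0.09), nearly all of it in maxillary tissue, where it differed by -0.58 against -0.06 in nasal tissue. *S100a6*, a calcium-binding protein, differed by -0.45 in nasal and -0.29 in maxillary tissue, and its average of -0.37 was -0.234 without Neo/Wt pool 3. *Tubb1*, a tubulin of platelets and their precursors, differed by -0.23 (SE 0.07) and *Dusp22*, a phosphatase gene on chromosome 13, by -0.13 (SE 0.04).

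*Emx2*, a homeobox gene of the forebrain, had an average of -0.49 (SE 0.15) that described neither prominence. It read 6.80, 6.79 and 6.65 in Neo/Null nasal tissue, above 6.40, 6.60 and 6.26 in Neo/Wt nasal tissue, and 4.60, 4.75 and 4.23 in Neo/Null maxillary tissue, below 5.75, 6.34 and 5.41 in Neo/Wt maxillary tissue. The nasal difference was 0.33 and the maxillary difference -1.31 (SE 0.19 each), and the limma test of the difference between them gave an adjusted p of 0.301. Other genes with the smallest p in that test were *Rnf225*, *Vstm2b*, *Crnde* and *Fbrs*, and their averages were 0.06, 0.01, -0.08 and 0.04. Each of these had opposite signs in the prominences with no overlap in either, which the choice by that test favours. Their averages near 0 thus described neither prominence, and none passed that test after adjustment.

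The tested genes of the Fgf pathway were higher on average, by small amounts. Of 12 secreted Fgf ligands listed, only 2 were tested. Probe sets of *Fgf17* left out by the detection filter had averages of 0.39 (SE 0.11) and 0.67 (SE 0.13). Those of *Fgf12* left out had averages of 0.30 (SE 0.10), 0.19 and -0.01. In the limma fit with no detection filter, the smallest adjusted p among these probe sets was 0.535. Both genes were named with their values known. The secreted ligand *Fgf9* had a difference of 0.31 (SE 0.08), with 0.24 in nasal and 0.39 in maxillary tissue. *Fgf8*, a ligand of the nasal and oral ectoderm, differed by 0.19 (SE 0.08), with no overlap in nasal tissue, where it had 8.59, 8.51 and 8.45 in Neo/Null against 7.99, 8.11 and 8.19 in Neo/Wt, while the maxillary difference was -0.03. Without Neo/Wt pool 1 the average of *Fgf8* was 0.117. Of the 11 tested feedback inhibitors and targets, 11 had a positive average with the deposited scaling and 10 with median centring or quantile normalization, with a median of 0.09 against 0.0076 for all genes, and 3 of them had an unadjusted limma p under 0.05. *Dusp6*, a phosphatase that acts on Erk, read 10.97, 10.89 and 11.05 in Neo/Null nasal and 10.83, 10.62 and 10.81 in Neo/Null maxillary tissue, against 10.75, 10.80 and 10.87 in Neo/Wt nasal and 10.70, 10.65 and 10.61 in Neo/Wt maxillary tissue. Its difference was 0.13 (SE 0.05), and the genotypes overlapped in maxillary tissue. *Spry1* (0.15, SE 0.06) and *Spred1* (0.10, SE 0.04), inhibitors of the same pathway, were the other members past that threshold, and all 6 probe sets of *Spred1* were higher. *Spry4* had a difference of 0.07 (SE 0.06). Of the receptors, *Fgfr1*, *Fgfr2* and *Fgfrl1* lay between -0.06 and 0.05. The Fgf lists were drawn up with the interest of the study in this pathway known, so their direction is not independent evidence.

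In the retinoic acid pathway 3 of 11 tested genes were higher and 8 lower. *Cyp26a1*, the enzyme that breaks down retinoic acid, was higher by 0.37 (SE 0.10), with 7.75, 7.35 and 7.69 in Neo/Null nasal and 8.21, 8.20 and 8.34 in Neo/Null maxillary tissue, against 7.14, 7.21 and 7.42 in Neo/Wt nasal and 7.68, 7.71 and 8.15 in Neo/Wt maxillary tissue. The receptor *Rarb* (-0.24, SE 0.08), the binding protein *Crabp1* (-0.19, SE 0.07) and the retinol transporter *Stra6* (-0.31, SE 0.12) had negative averages. Their maxillary differences were -0.45, -0.40 and -0.65 with no overlap, which the choice of list members by p favours, and their nasal ones were -0.04, 0.03 and 0.03. The limma test of the difference between prominences gave these 3 genes adjusted p-values of 0.677 to 0.679, and *Cyp26a1*, with 0.34 in nasal and 0.40 in maxillary tissue, overlapped between genotypes in nasal tissue.

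In the Notch pathway 10 of 11 tested genes were higher, with a median of 0.07. The median was 0.0325 to 0.132 with 1 pool or array left out. Without the array of Neo/Wt maxillary pool 3, 8 genes were higher. The ligand *Jag1* read 7.84, 7.86 and 7.85 in Neo/Null nasal and 7.77, 7.56 and 7.90 in Neo/Null maxillary tissue, against 7.56, 7.63 and 7.63 in Neo/Wt nasal and 7.36, 7.40 and 7.60 in Neo/Wt maxillary tissue, a difference of 0.27 (SE 0.07). The target *Hey1* (0.19, SE 0.06) and the receptor *Notch3* (0.15, SE 0.06) also had an unadjusted limma p under 0.05. In nasal tissue 11 of 11 were higher and in maxillary tissue 6 of 11, where 65.8% and 42.2% of all genes were higher. Without Neo/Wt pool 1 the average of *Notch3* was 0.0945, and its dimmer probe set had an average of 0.01 over all arrays.

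The other signalling lists held no common direction. Of the Bmp ligands and receptors 4 were higher and 4 lower, with *Bmp5* alone past an unadjusted p of 0.05, and of the Bmp antagonists and targets 7 were higher and 5 lower, led by *Id4* (0.19, SE 0.08). The Wnt ligands were divided 2 to 2, the Wnt agonists and antagonists 4 to 5 and the nuclear effectors 4 to 5. In the Hedgehog pathway 4 were higher and 6 lower, among them the co-receptor *Cdon* (-0.12, SE 0.05), whose difference was -0.28 in maxillary tissue and 0.03 in nasal tissue.

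Among 24 transcription factors of the facial mesenchyme, 9 were higher and 15 lower, with a median of -0.03, which was -0.105 without Neo/Wt pool 3 and -0.0886 without its maxillary array. *Shox2*, a homeobox gene, had the largest average, 0.62 (SE 0.27), with 8.95, 9.16 and 8.72 in Neo/Null nasal and 6.82, 7.25 and 6.52 in Neo/Null maxillary tissue, against 8.47, 8.35 and 8.24 in Neo/Wt nasal and 6.85, 6.65 and 5.15 in Neo/Wt maxillary tissue. On the array of Neo/Wt maxillary pool 3 it was at 5.15, and without that array its average was 0.36. The homeobox genes *Alx1* and *Dlx5* and the forkhead gene *Foxf1* were lower, at -0.31 (SE 0.11), -0.31 (SE 0.10) and -0.28 (SE 0.10). All 3 were lower with no overlap in maxillary tissue and overlapped in nasal tissue, and the choice of list members by p favours such gaps. *Msx1*, *Prrx2* and *Twist1*, further genes of this mesenchyme, had averages of -0.15, -0.14 and -0.09, while *Prrx1*, another of them, had one of -0.007.

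Genes of the surface ectoderm were higher in 15 of 17 cases, with a median of 0.12. The keratin *Krt19* (0.38, SE 0.17), the desmosomal *Dsp* (0.24, SE 0.11), E-cadherin *Cdh1* (0.22, SE 0.09) and the claudin *Cldn6* (0.17, SE 0.07) had an unadjusted limma p under 0.05, and *Epcam*, *Krt8* and *Krt18* had averages of 0.12, 0.16 and 0.14. *Trp63*, a further marker of surface ectoderm, had an average of 0.0004. *Cdh1* read 9.09, 8.73 and 8.73 in Neo/Null nasal and 8.61, 8.65 and 8.54 in Neo/Null maxillary tissue, against 8.49, 8.79 and 8.62 in Neo/Wt nasal and 8.21, 8.40 and 8.53 in Neo/Wt maxillary tissue. Only its maxillary signals were free of overlap. Without Neo/Wt pool 1 the averages of *Krt19*, *Dsp*, *Cdh1* and *Cldn6* were 0.227, 0.117, 0.138 and 0.0975. In these bulk samples more ectodermal cells and more RNA per ectodermal cell cannot be told apart. On single arrays the median of the list, centred within each prominence, was lowest in both arrays of Neo/Wt pool 1, at -0.166 and -0.175.

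Genes of differentiating neurons had the largest median of the lists with more than 4 tested genes, 0.25, with 17 of 18 higher, yet 1 had an unadjusted limma p under 0.05, the RNA-binding *Elavl2* (0.26, SE 0.09). The averages of the neurofilaments *Nefl* and *Nefm*, of *Stmn2* and of *Dcx* were 0.86, 0.83, 0.83 and 0.71, with SEs of 0.56, 0.47, 0.52 and 0.43. *Stmn2*, a microtubule regulator of growing axons, read 8.42, 8.51 and 8.12 in Neo/Null nasal and 8.74, 9.14 and 8.35 in Neo/Null maxillary tissue, against 8.27, 7.98 and 7.69 in Neo/Wt nasal and 8.69, 8.47 and 5.24 in Neo/Wt maxillary tissue. The array of Neo/Wt maxillary pool 3 was far below the rest, and the list's centred median on it was -0.881 against -0.18 to 0.45 on the other 11 arrays. Without that array the median difference of the list was 0.18, with 16 of 18 genes higher, and without the whole of Neo/Wt pool 3 it was 0.138, with 15 higher. Of 12 proneural and sensory neuron factors 10 were higher, with a median of 0.14, led by *Neurod1* (0.54, SE 0.21), which was 0.332 without that array, *Ebf1* (0.40, SE 0.14), which was 0.248 without Neo/Null pool 2, and *Isl1* (0.23, SE 0.10). Without the array of Neo/Wt maxillary pool 3 the median of these 12 was 0.02 and 7 were higher. The part of neuronal cells in the differences of *Uchl1*, *Tubb2b*, *Celf2* and other genes that neurons share was not tested.

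**Figure D4:**
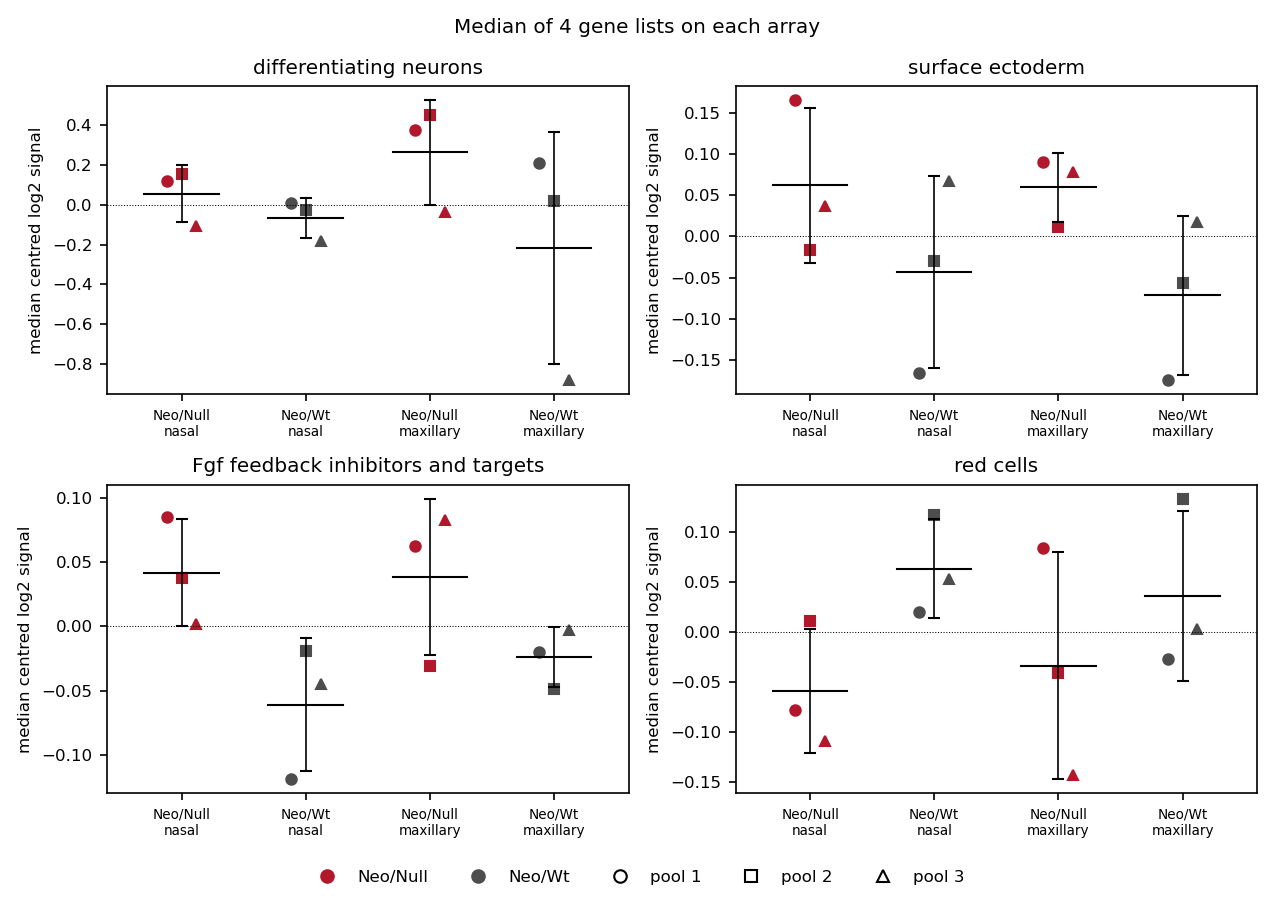
The median log2 signal of 4 gene lists, centred within each prominence, is plotted for each array with the group mean and bars of 1 SD. The neuron list lies at -0.881 on the array of Neo/Wt maxillary pool 3, and Neo/Null and Neo/Wt arrays overlap in at least 1 prominence for every list shown.

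Red cell genes were lower in 7 of 7 cases, with a median of -0.09, and *Gata1*, a transcription factor of erythroid cells and megakaryocytes on the X chromosome, had the only unadjusted limma p under 0.05 (-0.16, SE 0.06). The globins *Hba-x*, *Hbb-bh1* and *Hbb-y* had averages of -0.09, -0.07 and -0.01. Of 8 macrophage genes 6 were higher, led by the mannose receptor *Mrc1* (0.21, SE 0.09), and of 11 endothelial genes 4 were higher and 7 lower, with *Sox17* (0.14, SE 0.06) past that threshold. All 4 tested crest glia genes were higher, with a median of 0.21 and none past it. Their centred median was -0.592 on the array of Neo/Wt maxillary pool 3 against -0.102 to 0.267 on the other 11 arrays, and the median difference was 0.126 without that array and 0.113 without the whole pool.

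Cell cycle genes were close to equal. Of 24 DNA replication genes 7 were higher and 17 lower, with a median of -0.02, and of 21 mitosis genes 5 were higher and 16 lower, with a median of -0.01 and a range of -0.07 to 0.05. *Ccne2*, cyclin E2, stood apart from the replication genes at 0.26 (SE 0.08), and its signals in maxillary tissue were 8.56, 8.78 and 8.57 in Neo/Null against 8.09, 8.15 and 8.45 in Neo/Wt. *Cdkn1a*, which encodes the cyclin-dependent kinase inhibitor p21, was higher by 0.29 (SE 0.09), nearly equally in both prominences, while 14 other tested genes of growth arrest and p53 lay between -0.09 and 0.13. Metabolic lists were as near to 0. Of 19 hypoxia and glycolysis genes 0 had an unadjusted limma p under 0.05, of 19 cholesterol synthesis genes 1 did, *Nsdhl* on the X chromosome (-0.09, SE 0.04), and of 18 genes of the Atf4 amino acid response 2 did, *Pck2* (0.15, SE 0.05), with 0.39 in nasal and -0.08 in maxillary tissue, and *Vldlr* (0.20, SE 0.08). Of 17 imprinted growth genes 14 were higher, with a median of 0.03, and *Nnat* (0.17, SE 0.07) had the only unadjusted limma p under 0.05. Of 13 immediate early genes 11 were higher, with a median of 0.07 that was 0.01 without the array of Neo/Wt maxillary pool 3.

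**Figure D5:**
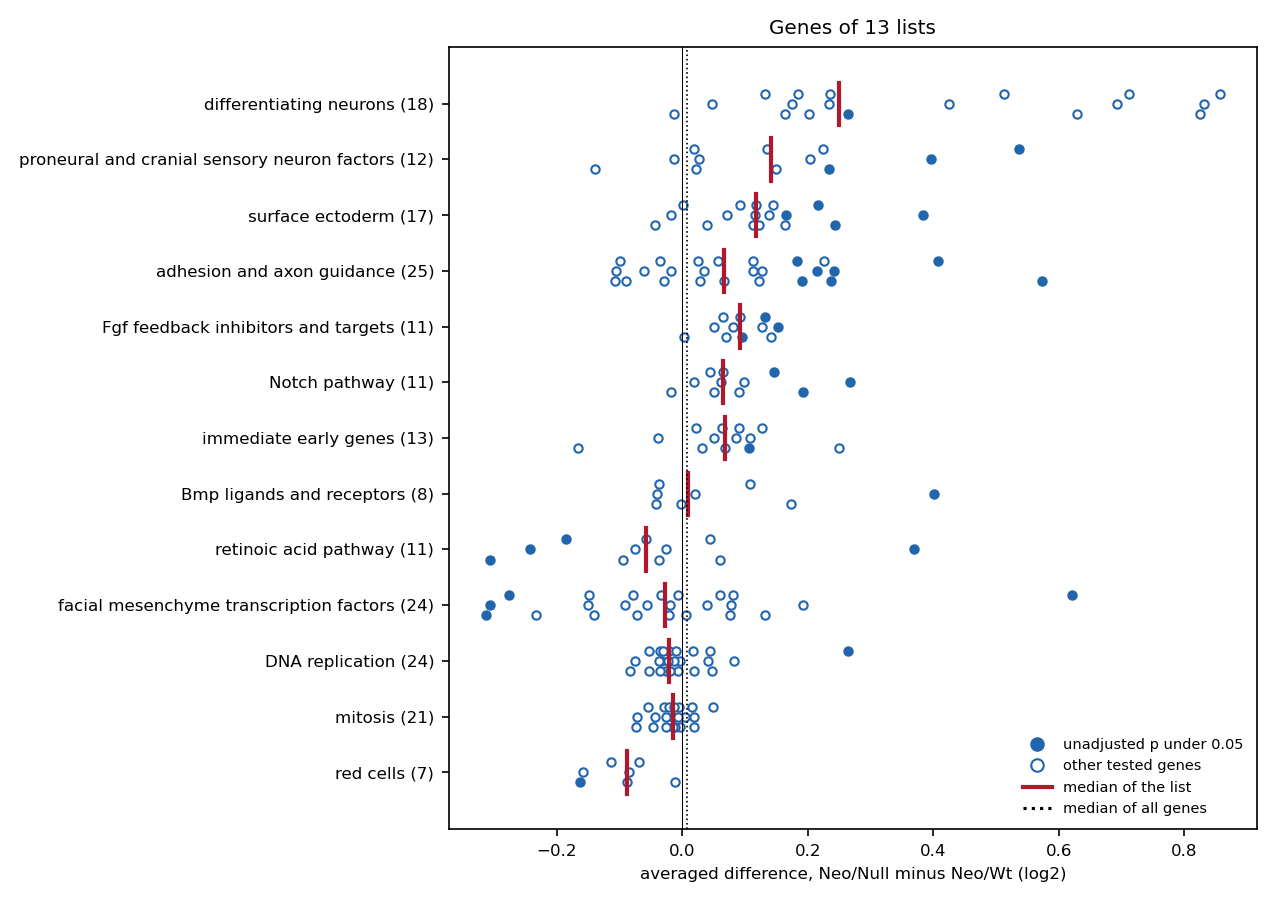
Each circle is a gene of 1 of 13 lists, placed by its averaged difference (log2, Neo/Null minus Neo/Wt) and filled where the unadjusted p is under 0.05. Red bars mark list medians, from 0.25 for differentiating neurons to -0.09 for red cells, and the dotted line marks the median of all genes, 0.0076.

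AP-2 proteins bind palindromes of the form GCCNNNGGC, which read the same on both strands, and these letters were searched in the promoters of the genes. Windows of 250 bases before and 50 bases after each annotated start were taken from RefSeq (GRCm38.p6), and a gene counted once if any of its windows held the motif. Of the 40 higher genes past the fold limit, 34 had a window and 13 of these held it (38.2%), against 29.9% of the tested genes with a window and 18.5% of all genes in the table. Of the 320 higher genes at an unadjusted p under 0.05, 262 had a window and 35.1% held it, against 23.6% of 72 lower genes. Of the 15 higher genes with the smallest p, 13 had a window and 3 held it (23.1%), and of the 15 lower ones 11 had a window and 3 held it (27.3%), both below the share of tested genes. With 4 bases in the place of the 3 in the middle, the share was 32.4% of the 34 genes past the fold limit, 28.4% of tested genes, 53.8% of the 13 higher genes and 27.3% of the 11 lower genes with the smallest p. The 3 lower genes past the fold limit held neither form. The stretches below show the motif, in capitals, in the promoters of 2 higher genes whose genotypes did not overlap in maxillary tissue (*Chn2* at chr6:54039751-54039809, plus strand, and *Cyp26a1* at chr19:37697724-37697782, plus strand), of *Dsp*, near *Tfap2a* (chr13:38151194-38151252, plus strand) and of the lower gene *Rchy1* (chr5:91963069-91963112, minus strand), so that the letters can be set beside their differences of 0.43, 0.37, 0.24 and -0.17.
Chn2: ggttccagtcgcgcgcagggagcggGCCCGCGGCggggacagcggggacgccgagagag
Cyp26a1: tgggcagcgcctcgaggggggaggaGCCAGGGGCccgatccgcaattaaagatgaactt
Dsp: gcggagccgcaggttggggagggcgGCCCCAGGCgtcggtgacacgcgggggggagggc
Rchy1: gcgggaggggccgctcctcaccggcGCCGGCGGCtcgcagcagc
The first capital lies 156, 59, 75 and 19 bases before the start of *Chn2*, *Cyp26a1*, *Dsp* and *Rchy1*. Whether AP-2α binds any of these sites was not measured here.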

How the data were processed

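RNA from pooled facial prominences was hybridised to Affymetrix mouse arrays. The authors scaled each array by a single factor to a common target in the Affymetrix software, and the deposited values are on a log2 scale. The summarisation behind them is not settled by the sources used here. The deposited detection calls are a score for each group of 3 arrays, 1 for present, -1 for absent and 0 for variable, and how they were combined is not stated. A further 12 columns of per-sample values were not used. Probe sets were named through the platform annotation, in which 34945 have 1 symbol, 932 several and 9160 none, and control probe sets were left out. Each gene is shown by its brightest tested probe set. Other probe sets are given for some genes only, so those not mentioned cannot be taken to agree.

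The fit was limma 3.58.1 (R 4.3.3, statmod 1.5.0) on the 4 groups, with duplicateCorrelation over pools (0.174) and Benjamini-Hochberg adjustment over 20153 probe sets. The contrast was the mean of both prominence differences, Neo/Null minus Neo/Wt. On simulated data, 50 probe sets were changed by each size tried. The same fit recovered 46% of those changed by 0.25, 94% at 0.5, 98% at 1 and 100% at 2 (log2). With so many large changes the adjusted test is easier to pass, and the noise was drawn separately for each probe set. These shares therefore do not tell how many changes were missed in the real data. Named genes were the 15 higher and the 15 lower with the smallest p, 5 by the test between prominences, list members with an unadjusted p under 0.05 (up to 5 a list), and *Tfap2a* and some Fgf pathway genes that the study discusses. Clone-like names were passed over, and further list members were named for their role or with their values known. The members and gene lists were chosen with earlier results of these data known. Alternatives were other scalings, detection filters, an offset, array weights, other pool models and leaving out each pool or array. Pools are named only by number in the labels. The p-values draw on the scatter of all arrays around their group means (8 residual degrees of freedom), with 1 shared correlation for pools. They are thus not a measure of the spread between pools alone, which the fit on pool means uses. The number of arrays, 12, limits the precision.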

Additional observations from a re-analysis of the deposited data

Results flagged for a closer look

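Among 156 groups of 6 arrays of 1 genotype, each array taken relative to its prominence, 10 held an array whose gap to the nearest other array was over 0.625 of the range, where chance alone gives about 1 in 20. For *Zic5* the gap was 0.626 of the range, from Neo/Null maxillary pool 1 at 5.43 beside 4.89 to 4.99 in the other maxillary pools. For *Sema3e* it was 0.67, from Neo/Null maxillary pool 3 at 6.56 beside 6.21 to 6.27. For *Bmp5* it was 0.642, from Neo/Null nasal pool 1 at 7.51 beside 7.14 to 7.18. For *Tubb2b* it was 0.631, from Neo/Null maxillary pool 2 at 10.46 beside 10.03 to 10.16. In these 4 genes the array that stood apart was a high Neo/Null one, and the other Neo/Null arrays also lay above the Neo/Wt arrays of their prominence.

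For *Tubb1* the gap was 0.71, from Neo/Null maxillary pool 1 at 5.93 beside 5.68 to 5.7. For *Ccne2* it was 0.647, from Neo/Null maxillary pool 2 at 8.78 beside 8.56 to 8.57. For *Efnb2* it was 0.647, from Neo/Null nasal pool 3 at 9.41 beside 9.62 to 9.63, and for *Elavl2* 0.633, from Neo/Null nasal pool 2 at 8.06 beside 8.37 to 8.47. The array of Neo/Wt maxillary pool 3 stood low for *Uchl1*, with a gap of 0.728 and 7.77 beside 7.98 to 8.01, and for *Neurod1*, with 0.707 and 6.02 beside 6.99 to 7.4.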

How the results depend on the processing

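The count of probe sets past the adjusted test, 1 in the fit described, was 0 with pool means, with probe sets present in at least 1 group, with no detection filter, with median centring and with quantile normalization, 3 with a mean-variance trend and robust fitting and 2 with array weights. With the replicate number as a block it was 3, with *Alcam*, *Ssr1* and a probe set of *Snrnp48*. Deviations of the same-numbered pools of both genotypes correlated at -0.0615, 0.327 and 0.515, so the numbers were not taken as a pairing. The count at an unadjusted limma p under 0.05, 872, was 1595 with the replicate block, 2128 with no filter and 1499 with array weights. The count also past the fold limit, 81, was 124 with presence in at least 1 group, 148 with no filter and 21 with an offset of 32. Leaving out 1 pool or array gave 0 to 0, 473 to 1660 and 59 to 200 for the 3 counts. The lowest of the 872 was 473, without Neo/Wt pool 1, with 568 without the array of Neo/Null maxillary pool 3, and the highest was 1660, without Neo/Wt pool 3, which also gave 200. Without the array of Neo/Wt maxillary pool 3 the counts were 1414 and 125. Of 78 named genes 76 kept their direction under all 30 alternatives. *Vstm2b*, near 0, was at -0.00856 with median centring, -0.0238 with array weights and -0.0297 to 0.0477 with a pool or array left out, and *Fbrs* was at -0.000888 to 0.0689 with one left out. The average of *Emx2* was -0.228 with the offset and -0.318 without Neo/Wt pool 2, that of *Crabp1* was -0.121 and of *Cdon* -0.0736 without Neo/Null pool 3, and that of *Tfap2b* was 0.115 without Neo/Null pool 1. With the offset *Sema3e* was at 0.266, *Chn2* at 0.28, *Tafa2* at 0.221 and *Fgf9* at 0.207. The cause of these shifts was not tested.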
